A study of Homo sapiens with 8 samples.

Results

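The transcription factor ATF4 of the integrated stress response and a set of its partners and targets were followed in RNA-seq data from cells kept with or without sodium benzoate (SB). The members were taken by name, with earlier results of these data known. They are genes with a row in the deposited expression table: ATF4, ATF5, CEBPB, DDIT3, TRIB3, PPP1R15A, SESN2, CHAC1, ASNS and STC2, 10 of the 14526 genes with a row. Values are reads scaled by gene length and library size (RPKM), so levels can be set side by side per length.

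The study described benzoylation of histone lysines as a mark that SB, a salt of benzoic acid used as a food preservative, raises. It reported that the enzyme SIRT2 removes the mark and that the mark is associated with gene expression. The cells, labelled HepG2 (an established liver tumour line), were grown in DMEM with 10% serum. The control group of 4 replicates had no SB, and the SB-treated group of 4 replicates had 10 mM SB for 24 h before harvest. The replicates are biological replicates of 1 cell line at 1 dose and 1 time.

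The integrated stress response is set off when one of several kinases phosphorylates the translation factor eIF2. Protein synthesis then slows in general, while the ATF4 mRNA, which carries upstream reading frames, is translated more. ATF4 protein activates genes for amino acid synthesis and transport, for loading of tRNAs and for stress signalling, among them PPP1R15A, whose product helps to remove the phosphate again. The level of the ATF4 mRNA is therefore only part of its control, and neither ATF4 protein nor eIF2 phosphorylation was measured here.

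The sites through which ATF4 is known to act are short, and those found near the members are shown because some members with such a site rose with SB and others did not. The letters TGATGNAA (a CARE, the C/EBP-ATF response element) and TGACGTCA (a CRE) were searched on both strands of the 500 bases before each RefSeq start, and the motifs do not overlap in these letters. A CARE match lay before 2173 of 35116 starts searched in the genome (6.19%) and a CRE match before 696 (1.98%). Counted by gene, with any of its starts, these were 2046 (7.49%) and 656 (2.40%) of 27305 genes. A CARE match lay before 9 of the members' 18 starts, in 5 of the 10 members, and a CRE match before 1 start, in PPP1R15A. The members were taken by name as ATF4 and its partners and targets, so their share with a match is no test of enrichment. Each line gives 30 bases of hg38, 5′ to 3′ on the strand of the gene, with the matched letters in capitals.
TRIB3: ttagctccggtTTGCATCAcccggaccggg
SESN2: gtgaagtccctTTTCATCAcgcaaccctaa
DDIT3: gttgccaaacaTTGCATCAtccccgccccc
CHAC1: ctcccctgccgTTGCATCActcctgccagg
ASNS: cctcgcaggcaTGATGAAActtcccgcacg
PPP1R15A: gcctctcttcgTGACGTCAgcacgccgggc

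The TRIB3 line stands 3 times in a row on the plus strand, at chr20:380881-380910, chr20:380914-380943 and chr20:380947-380976, within an annotated exon of TRIB3. The SESN2 line is at chr1:28259211-28259240 (plus strand), outside annotated genes and 296 bases before the start. The DDIT3 line, at chr12:57520802-57520831 (minus strand), lies in an intron of DDIT3 and of the overlapping gene MBD6. The CHAC1 line is at chr15:40953251-40953280 (plus strand) and the ASNS line at chr7:97872458-97872487 (minus strand), each in an annotated exon of its gene. The PPP1R15A line is at chr19:48872352-48872381 (plus strand), in an annotated exon of PPP1R15A. A match is only a run of letters in these windows, and no match was found for ATF4, ATF5, CEBPB and STC2.

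Each library held between 36990091 and 44878446 reads over these genes, and the members had between 297 reads (ATF5, control replicate 3) and 28821 reads (ATF4, SB-treated replicate 4) in a library. Control replicate 1 stood apart from the other 3 control replicates. It was the farthest control from the rest, with a gap that met Dixon's test, for 14.6% of all genes, against 0.317% to 0.620% for the other control replicates. A fit on GC content explained 50.8% of the variance over genes of its difference from them. The label HepG2 was checked against 18 markers of hepatocytes, and the data went against it. Of the 18, 15 had no row, among them ALB, APOA1, AFP, TTR, SERPINA1 and HNF4A. TF, which encodes transferrin, was at 0.192 RPKM on average in the control replicates and 0.379 RPKM in the SB-treated replicates, and CYP2E1, a cytochrome P450, at 0.188 and 0.68 RPKM. Both were called higher with SB, and their part in the results below was not tested.

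With SB 5 of the 10 members rose (ATF4, ATF5, TRIB3, PPP1R15A and SESN2), and the other 5 did not pass the test in either direction. The rises were between 21.1% (ATF4) and 88.3% (ATF5) in mean RPKM. Changes were tested with limma on log2(RPKM + 1) and called at an adjusted p below 0.05. In this comparison 33.0% of all genes were called higher and 32.6% lower, so calls were common across the table (65.6% in either direction). Called rises of 0.5 or more on the log2 scale were found for 1 member (ATF5) and for 5.12% of all genes. By limma 0 of the 10 members were called lower, with 1 (CHAC1) lower at an unadjusted p below 0.05 and 0 by voom. The median log2 fold change was 0.20 over the members and 0.00 over all genes (0.0045). Since cells were harvested in bulk, fewer cells of a kind and less RNA per cell cannot be told apart.

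ATF4, the central transcription factor of the response (chromosome 22, 39519695 to 39522683, hg38, plus strand), was the most abundant member in both groups. Its levels were 255, 244, 257 and 242 RPKM in control replicates 1 to 4 and 297, 302, 305 and 306 RPKM in SB-treated replicates 1 to 4. Every SB-treated library was above every control library. The mean went from 249.6 ± 7.80 to 302 ± 4.00 RPKM (SD, n = 4 each). This is a log2 fold change of 0.28 with a SE of 0.035 and a limma adjusted p of 8.51e-05. By log2 fold change ATF4 ranked 2568 of 14526 genes, within the upper 17.7%.

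ATF5, a related factor whose mRNA is likewise under translational control (chromosome 19, 49928702 to 49933935, plus strand), had the lowest level and the largest rise of the members. It was at 3.04, 3.13, 3.19 and 3.11 RPKM in the control replicates and at 5.89, 5.82, 5.87 and 5.91 RPKM in the SB-treated replicates. The groups were far apart and the spread within each was small, with SDs of 0.0624 and 0.0371 RPKM. Its log2 fold change was 0.74 with a 95% interval of 0.67 to 0.81 (limma adjusted p = 1.77e-07), at rank 179 of all genes. The pseudocount of 1 lowers this value, since ATF5 is near the low end of the scale. ATF5 lies opposite to NUP62, a nuclear pore gene, whose level did not pass the test (34.9 and 34.8 RPKM, limma adjusted p = 0.992).

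TRIB3 encodes a pseudokinase that restrains ATF4 and AKT signalling, and its gene lies on chromosome 20 (362835 to 397559, plus strand). Its levels were 32.5, 41.3, 41.1 and 40.1 RPKM in the control replicates and 50.5, 56.2, 54.7 and 54.2 RPKM in the SB-treated replicates. All 4 SB-treated libraries were higher than all controls, and control replicate 1 was the lowest library, at 79.5% of the mean of the other controls. TRIB3 rose by 39.1%, with a log2 fold change of 0.47 ± 0.075 (SE) and a limma adjusted p of 0.000393. Against control replicates 2 to 4 only, the SB-treated mean was 132% of the control mean and the log2 fold change was 0.39.

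PPP1R15A (GADD34) brings protein phosphatase 1 to phosphorylated eIF2, and its gene lies on chromosome 19 (48872212 to 48876059, plus strand). It was at 38.9, 36.7, 38.1 and 36.2 RPKM in the control replicates and at 51.0, 50.2, 50.8 and 50.8 RPKM in the SB-treated replicates. The groups did not overlap, and the SB-treated libraries lay within 1 RPKM of each other. The log2 fold change was 0.43 with a 95% interval of 0.35 to 0.50 (limma adjusted p = 5.46e-06).

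SESN2, a stress-induced inhibitor of mTORC1 (chromosome 1, 28259518 to 28282491, plus strand), was at 58.6, 70.1, 67.4 and 70.0 RPKM in the control replicates. In the SB-treated replicates it was at 82.1, 87.0, 86.3 and 85.9 RPKM. The groups did not overlap, and control replicate 1 was the lowest, at 84.8% of the mean of the other controls. The mean went from 66.5 ± 5.42 to 85.3 ± 2.18 RPKM, with a log2 fold change of 0.36 (SE 0.057, limma adjusted p = 0.000425). Without control replicate 1 the log2 fold change was 0.30.

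**Figure D1:**
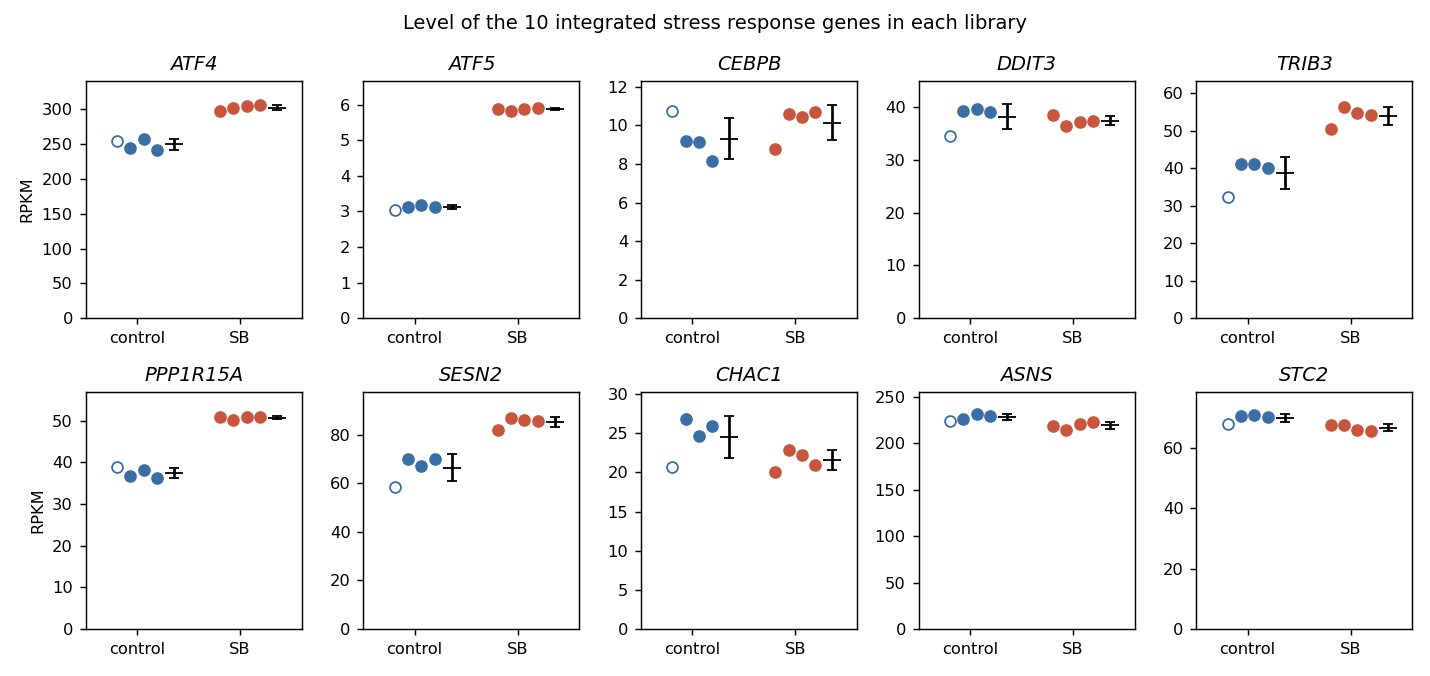
RPKM of the 10 members in each library, 1 panel per gene, with control and SB-treated replicates as points, control replicate 1 as an open circle, and the mean and SD (n = 4) as bars. ATF4, ATF5, TRIB3, PPP1R15A and SESN2 have all 4 SB-treated libraries above all controls, while CEBPB, DDIT3 and CHAC1 overlap.

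The plot of levels by library shows the remaining members beside these. CHAC1, an enzyme that breaks down glutathione (chromosome 15, 40952962 to 40956512, plus strand), was at 20.7, 26.8, 24.7 and 25.9 RPKM in the control replicates. Its SB-treated replicates were at 20.1, 22.9, 22.3 and 21.0 RPKM. Control replicate 1 was low among the controls, at 80.4% of the mean of the others, and fell inside the SB-treated range, so the groups overlapped. With all libraries the log2 fold change was -0.17 with a 95% interval of -0.34 to 0.00 (-0.0036), which did not pass the test (limma adjusted p = 0.0678). Without control replicate 1 the groups did not overlap, and CHAC1 was called lower with a log2 fold change of -0.25 (limma adjusted p = 0.00102).

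DDIT3 (CHOP), a factor that pairs with C/EBP proteins and is tied to cell death under lasting stress, lies on chromosome 12 (57516588 to 57521737, minus strand). It was at 34.5, 39.1, 39.7 and 39.1 RPKM in the control replicates and at 38.5, 36.4, 37.2 and 37.3 RPKM in the SB-treated replicates. Control replicate 1 was the lowest library of all, and the groups overlapped only through it. The log2 fold change was -0.03 with a 95% interval of -0.13 to 0.08 (limma adjusted p = 0.642). Its sign depended on the processing: it was 0.08 with library sizes not scaled by TMM and 0.16 with a correction for GC content and length, where it was called higher (limma adjusted p = 0.00427). DDIT3 overlaps on the opposite strand with MARS, a tRNA synthetase gene whose log2 fold change was -0.45, and MBD6, whose log2 fold change was 0.48. Whether reads were counted by strand is not given in the sources used here, and without strand such reads cannot be told apart.

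CEBPB, a C/EBP factor that binds DNA together with ATF4 (chromosome 20, 50190830 to 50192668, plus strand), was at 10.7, 9.20, 9.13 and 8.16 RPKM in the control replicates. Its SB-treated replicates were at 8.80, 10.6, 10.5 and 10.7 RPKM. Control replicate 1 was the highest control and SB-treated replicate 1 the lowest SB-treated library, and the groups overlapped. The log2 fold change was 0.11 with a SE of 0.081 (limma adjusted p = 0.237; exact permutation test, two-sided, p = 0.371). Without control replicate 1 it was 0.18 and was called higher (limma adjusted p = 0.0335), although the groups still overlapped. The opposite strand holds CEBPB-AS1, which rose from 1.02 to 1.57 RPKM (log2 fold change 0.35, limma adjusted p = 8.51e-05).

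ASNS, which makes asparagine and is a much used readout of ATF4 (chromosome 7, 97851677 to 97872542, minus strand), was the second most abundant member. It was at 224, 226, 232 and 229.9 RPKM in the control replicates and at 218, 215, 221 and 223 RPKM in the SB-treated replicates. Every SB-treated library lay below every control library, by a small margin. Its log2 fold change of -0.06, with a 95% interval of -0.13 to 0.01, did not pass the limma test (adjusted p = 0.141), and it was 0.05 without TMM scaling. STC2, a secreted glycoprotein (chromosome 5, 173314723 to 173328447, minus strand), was at 68.2, 70.7, 70.9 and 70.4 RPKM in the control replicates. In the SB-treated replicates it was at 67.8, 67.7, 66.1 and 65.6 RPKM. The STC2 groups did not overlap, but its log2 fold change of -0.07 did not pass the limma test (adjusted p = 0.0864), and it was 0.04 without TMM scaling.

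The exact permutation test of 4 against 4, two-sided, gave its smallest possible p of 0.0286 for ATF4, ATF5, TRIB3, PPP1R15A, SESN2, ASNS and STC2. It gave 0.114 for CHAC1, 0.371 for CEBPB and 0.629 for DDIT3. Groups that do not overlap were common in the table, for 61.5% of all genes, with 31.0% above and 30.5% below in the SB-treated libraries. With control replicate 1 left out, limma called 6 members higher, adding CEBPB, and 4 lower: CHAC1, STC2, DDIT3 and ASNS. Of those 4 log2 fold changes 3 were small, at -0.08 (STC2), -0.07 (DDIT3) and -0.06 (ASNS). Calls over all 14526 genes were also more common without this library, with 5459 higher and 5511 lower. With all 8 libraries they were 4787 and 4740. In this run the SB-treated means of the 5 risen members were 122% (ATF4), 187% (ATF5), 132% (TRIB3), 137% (PPP1R15A) and 123% (SESN2) of the remaining control mean.

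**Figure D2:**
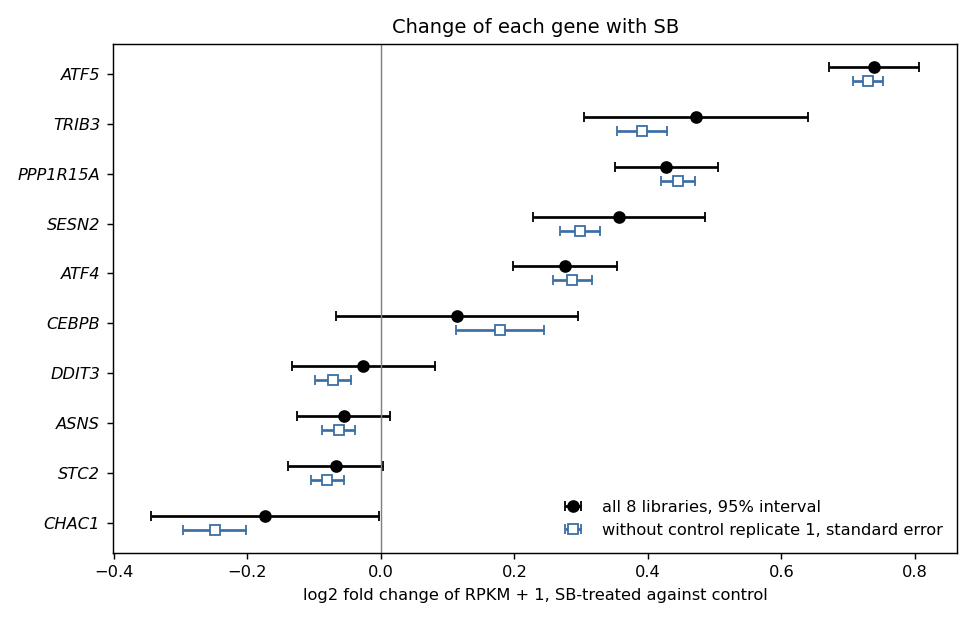
Log2 fold change of each member, SB-treated minus control, on log2(RPKM + 1), from all 8 libraries with its 95% interval and from the 7 libraries without control replicate 1 with its SE. The 5 members called higher lie between 0.28 and 0.74, and the other 5 lie between -0.17 and 0.11 with all 8 libraries.

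The plot of log2 fold changes sets both runs side by side, and the plot of control replicate 1 shows the genes for which that library lay away from the other controls. Control replicate 1 lay below the other controls for TRIB3, CHAC1, SESN2 and DDIT3, at 79.5% to 87.9% of their mean. It lay above them for CEBPB, at 122%, and close to them for ATF4 (103%), PPP1R15A (105%), ATF5 (96.7%), ASNS (97.9%) and STC2 (96.5%).

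**Figure D3:**
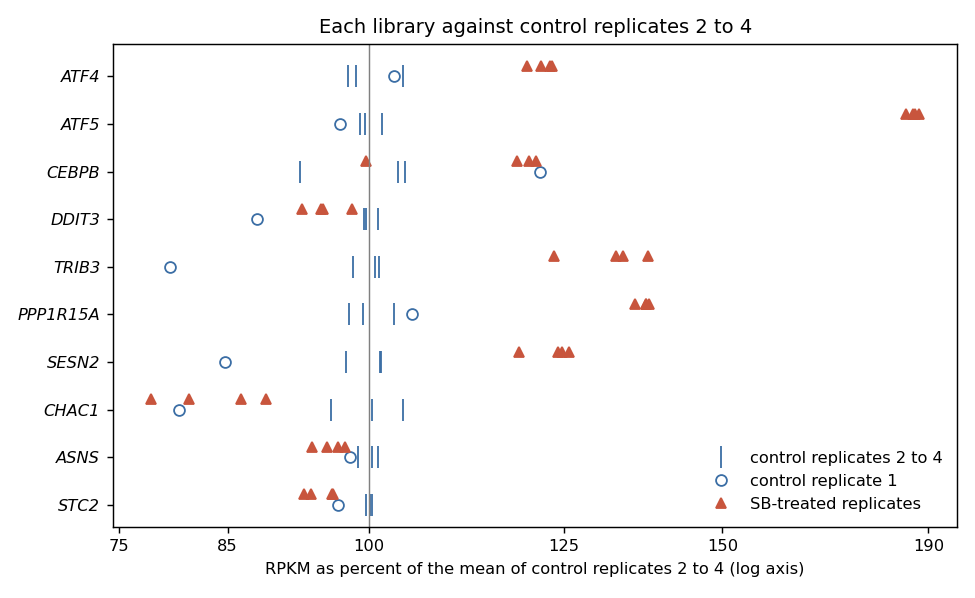
RPKM of each member in every library as a percent of the mean of control replicates 2 to 4, on a log axis, with control replicate 1 as an open circle. That library is at 79.5% for TRIB3 and 80.4% for CHAC1 but within 5.04% of the other controls for ATF4, ATF5, PPP1R15A, ASNS and STC2.

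Set in order of level per length, ATF4 and ASNS stood first and second in both groups, and CHAC1, CEBPB and ATF5 stood last. In the control replicates the ranges of STC2 and SESN2 overlapped, as did those of neighbours among TRIB3, DDIT3 and PPP1R15A. In the SB-treated replicates SESN2 (85.3 RPKM) stood above STC2 (66.8 RPKM), and TRIB3 and PPP1R15A, whose ranges overlapped, stood above DDIT3. Over the 8 libraries the genes most like ATF4, by Pearson's r of log2(RPKM + 1) among 12544 genes of at least 1 RPKM on average, were SRSF2, a splicing factor (r = 0.998), HSD17B6, a steroid dehydrogenase (r = 0.996), and FOXA3, a forkhead factor (r = 0.996). These values describe 8 libraries in 2 groups. Because ATF4 separated the 2 groups, genes chosen by such an r rise with SB through the choice itself. SRSF2 went from 47.9 to 60.7 RPKM, HSD17B6 from 4.42 to 7.66 RPKM and FOXA3 from 2.06 to 4.16 RPKM.

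The factors that start the response and the machinery they act on were mostly lower or did not pass the test. Of 21 genes for the kinases, eIF2, its exchange factor eIF2B, its phosphatases and their regulators (GCN1, IMPACT, DELE1, OMA1 and DNAJC3), 4 rose and 11 fell, with a median log2 fold change of -0.12. Of all genes 33.0% were called higher and 32.6% lower. EIF2AK3 (PERK), the kinase of the endoplasmic reticulum, rose from 3.67 ± 0.341 to 5.04 ± 0.058 RPKM (log2 fold change 0.37, limma adjusted p = 0.000161). EIF2AK1 (HRI), the heme-sensing kinase, had a log2 fold change of -0.10 (limma adjusted p = 0.0212), a call lost without SB-treated replicate 2 (adjusted p = 0.0634) or 4 (adjusted p = 0.0504) and without TMM scaling. EIF2AK2 (PKR, log2 fold change 0.12) and EIF2AK4 (GCN2, 0.07) did not pass the test with all libraries. In the run leaving out control replicate 1 both were called higher, at 0.18 and 0.08 (limma adjusted p = 0.000412 and 0.0109), as they were without TMM scaling. The GC content and length correction called EIF2AK2 higher too (0.14, limma adjusted p = 0.00163).

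All 3 eIF2 subunits and all 3 catalytic subunits of protein phosphatase 1 fell, as did 3 of 5 subunits of eIF2B, a grouping made after the values were seen. Beside these, 32.6% of all genes were called lower and 33.0% higher. EIF2B3 fell by 45.1%, from 12.8 to 7.01 RPKM (limma adjusted p = 9.49e-07), and PPP1CB, a catalytic subunit, went from 75.5 to 53.7 RPKM (limma adjusted p = 6e-05). PPP1R15B, the constitutive counterpart of PPP1R15A, rose from 30.7 ± 0.673 to 45.0 ± 0.848 RPKM, a log2 fold change of 0.54 (limma adjusted p = 1.25e-06). Both alternative regulatory subunits that bring protein phosphatase 1 to eIF2 were thus higher, and the catalytic subunits of protein phosphatase 1 lower. Without control replicate 1, 7 of the 21 genes were called higher, in a run that called 5459 of all 14526 genes higher.

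Among 11 bZIP factors that can pair with ATF4 or C/EBP proteins, 6 rose and 1 fell, with a median log2 fold change of 0.18. Over all genes 33.0% were called higher and 32.6% lower. ATF3, a stress-induced factor downstream of ATF4, rose from 87.7 ± 3.05 to 126 ± 1.05 RPKM (log2 fold change 0.52, limma adjusted p = 2.12e-06). JUND, an AP-1 subunit, had the largest rise, from 18.0 to 41.2 RPKM (log2 fold change 1.16), followed by MAFG, a small MAF partner, from 7.27 to 14.6 RPKM (0.92). FOS was the one that fell, from 0.694 to 0.365 RPKM, a level near the floor with 27 to 74 reads in a library. CEBPG, a C/EBP factor that pairs with ATF4 on amino acid genes, did not pass the test with all libraries (80.6 and 84.1 RPKM, log2 fold change 0.06). It was called higher at 0.09 when control replicate 1 was left out (limma adjusted p = 0.00946), as it was without TMM scaling (0.16) and with the GC content and length correction (0.10).

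The genes of amino acid synthesis and tRNA loading that ATF4 is known to activate did not rise with it. Of 12 genes of amino acid synthesis and one-carbon metabolism, 8 fell and 0 rose by limma (0 at an unadjusted p below 0.05 and 0 by voom), with a median log2 fold change of -0.40. Over all genes 32.6% were called lower and 33.0% higher. CTH, the last enzyme of cysteine synthesis, fell from 90.4 ± 6.25 to 54.3 ± 1.47 RPKM (limma adjusted p = 2.39e-06). GOT1, the cytosolic aspartate aminotransferase, fell from 63.2 to 38.1 RPKM and PSAT1, of serine synthesis, from 322 to 237 RPKM, while PHGDH did not pass the test (log2 fold change -0.01).

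Over all genes 32.6% were called lower and 33.0% higher. Of 13 genes for tRNA loading and export, 12 fell and 0 rose by limma (0 at an unadjusted p below 0.05 and 0 by voom). These 12 were the aminoacyl-tRNA synthetases, with log2 fold changes from -0.65 (NARS) to -0.13 (LARS). NARS, for asparagine, fell from 94.9 ± 7.81 to 60.1 ± 0.735 RPKM, and YARS, for tyrosine, fell from 260 to 178 RPKM (limma adjusted p = 6.99e-06 and 9.26e-07). XPOT, the tRNA exporter, did not pass the test (log2 fold change 0.04). Leaving out control replicate 1, a run that called 5459 of all 14526 genes higher, 1 of the 13 genes was called higher.

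Among 9 amino acid transporters 3 rose, and 0 fell by limma (0 at an unadjusted p below 0.05 and 0 by voom). The share that rose was near that of all genes, of which 33.0% were called higher and 32.6% lower. SLC1A4, a carrier of small neutral amino acids, rose from 4.01 ± 0.377 to 9.35 ± 0.243 RPKM (log2 fold change 1.05, limma adjusted p = 6.48e-07), and SLC38A2 rose from 83.8 to 99.1 RPKM. SLC7A11, the cystine carrier, did not pass the test (16.8 and 15.8 RPKM, log2 fold change -0.08, limma adjusted p = 0.255). Its value was -0.02 when control replicate 1 was left out, and with the GC content and length correction it was called lower at -0.16 (limma adjusted p = 0.000351). Leaving out control replicate 1, 3 of the 9 transporters were called lower, in a run that called 5511 of all 14526 genes lower.

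Of 18 other stress effectors attributed to ATF4 or CHOP, 17 had a row (GDF15 did not), and 11 rose and 3 fell, with a median log2 fold change of 0.20. Over all genes 33.0% were called higher and 32.6% lower. LAMP3, a lysosomal membrane protein, rose from 1.20 to 2.04 RPKM and BBC3 (PUMA), a pro-apoptotic BH3 protein, from 10.4 to 14.5 RPKM. DDIT4 (REDD1), which like SESN2 restrains mTORC1, went the other way: it fell by 45.1%, from 401 ± 19.1 to 219.9 ± 4.28 RPKM (log2 fold change -0.86, limma adjusted p = 4.26e-07). BCL2L11 (BIM) fell from 5.41 to 4.89 RPKM (limma adjusted p = 0.0139).

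The other arms of the unfolded protein response, through ATF6 and IRE1, were read from 18 genes, the factors and sensors XBP1, ERN1 and ATF6 and genes of folding, translocation and degradation, of which 2 rose and 7 fell, with a median log2 fold change of -0.11. Over all genes 33.0% were called higher and 32.6% lower. HSPA5 (BiP), the main chaperone of the endoplasmic reticulum, did not pass the test with all libraries (126 and 131 RPKM, limma adjusted p = 0.116) and was called higher when control replicate 1 was left out (log2 fold change 0.07, limma adjusted p = 0.0286). XBP1, the factor activated by IRE1, fell from 109 to 88.3 RPKM (limma adjusted p = 3.96e-05), PDIA6, a disulfide isomerase, had a log2 fold change of -0.37, and HERPUD1 fell from 51.1 to 39.8 RPKM. All these values are mRNA levels per gene, and the activity of IRE1 and ATF6 was not measured. The 2 that rose were EDEM1 (12.2 to 17.4 RPKM) and SEL1L (9.81 to 13.2 RPKM). Without control replicate 1, 5 of the 18 were called higher, in a run that called 5459 of all 14526 genes higher.

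Together the 6 lists beside the ATF6 and IRE1 list held 83 genes with a row, of which 24 rose and 35 fell with a median log2 fold change of -0.04, beside 4787 and 4740 of all 14526 genes.

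**Figure D4:**
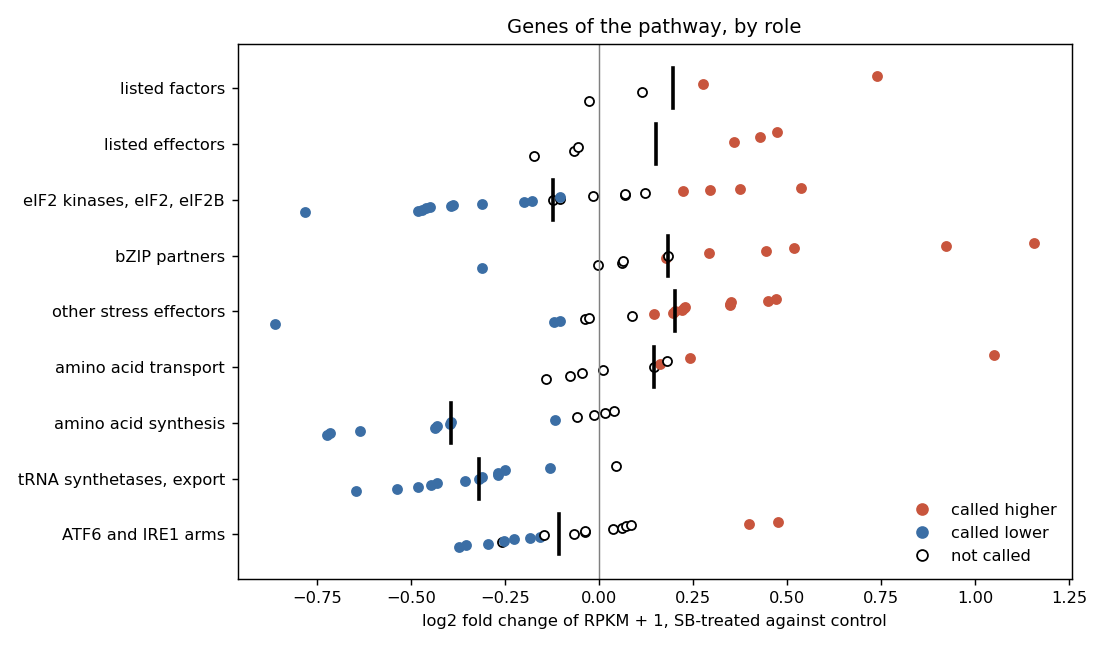
Log2 fold change of every gene with a row, by list, SB-treated minus control on log2(RPKM + 1), with genes called higher in red, called lower in blue and not called as open points, and the list's median as a black bar. The medians lie at -0.40 for amino acid synthesis, -0.32 for tRNA loading, 0.18 for the bZIP factors and 0.20 for the stress effectors.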

How the data were processed

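RNA was sequenced from 8 cultures, 4 control and 4 SB-treated, grouped by the labels. The authors prepared stranded total RNA libraries, sequenced 50-base single reads, mapped them to hg38 with TopHat 2.1.0, counted them per gene with featureCounts 1.5.0, dropped genes not over 1 CPM in 2 or more samples and scaled library sizes by TMM in edgeR 3.16.5. The authors deposited RPKM per gene and library for 14526 genes. Their own columns of log2 fold change, mean log2 CPM, p-value and FDR were not used, nor was the ChIP-seq analysed here. The number of unused columns of per-sample values was 0.

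Expression was compared with limma 3.58.1 (lmFit, eBayes) in R 4.3.3 on log2(RPKM + 1) over all genes, without a filter and with Benjamini-Hochberg adjustment, and per member with an exact permutation test. The pseudocount makes fold changes of low genes smaller. Whole reads were recovered from the RPKM values for 100% of genes and gave the depths. They also gave the reads for voom.

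The members and lists were chosen with earlier results of these data known. Named genes are the members, up to 2 called genes in each direction with the most extreme change of each list, 12 genes listed whatever their values, the 3 genes most like ATF4 and the markers with a row, of which 1 is not reported here. A few others (PHGDH, XPOT, LARS, list members named without values, and genes overlapping a member) were named after their values were seen. Motifs were read from hg38 at RefSeq starts (GRCh38.p14), and positions from GENCODE 44. Alternatives were a pseudocount of 0.1, a mean of at least 1 RPKM, no TMM scaling, median-of-ratios scaling, voom, a replicate block and leaving out each library. A correction for GC content and length, and voom without control replicate 1, were added after seeing the data.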

Additional observations from a re-analysis of the deposited data

Results flagged for a closer look

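Within each group of 4 libraries the gap of the farthest library was divided by the range of the group, and Dixon's test at the 95% level was applied. The gap was too wide in 8 groups out of 92, where chance gives 4.6. Of these 8, 6 were control replicate 1. Among the members these were DDIT3 (0.888, at 34.5 RPKM) and TRIB3 (0.878, at 32.5 RPKM), both low in that library. In the pathway lists they were PSAT1 (0.971, at 350.4 RPKM), SLC7A11 (0.862, at 18.9 RPKM) and EIF2AK2 (0.838, at 15.1 RPKM), all high, and SLC1A4 (0.83, at 3.45 RPKM), low. The other 2 were SB-treated replicate 1, low for CEBPB (0.89, at 8.80 RPKM) and for JUND (0.948, at 36.3 RPKM). The part of these libraries in the results of the other genes was not tested beyond leaving each out in turn.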

How the results depend on the processing

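ATF4, ATF5, TRIB3, PPP1R15A and SESN2 stayed higher and called in all 16 alternatives. Leaving out 1 library at a time gave log2 fold changes of 0.0592 to 0.179 for CEBPB, -0.0719 to -0.00706 for DDIT3, -0.249 to -0.13 for CHAC1, -0.0637 to -0.0459 for ASNS and -0.0806 to -0.0591 for STC2. It gave 0 to 4 members called lower and 2 to 5 genes of the ATF6 and IRE1 list called higher, the upper ends without control replicate 1. That run called 5511 of all 14526 genes lower and 5459 higher. Without TMM scaling the median of all genes moved to 0.08, 65.1% of all calls were higher against 50.2%, and the values were 0.21 for CEBPB (called), 0.0758 for DDIT3, 0.0489 for ASNS, 0.036 for STC2 and 0.0208 for SLC7A11, the last 4 reversed, with 6 genes of the ATF6 and IRE1 list higher and 4 lower. With the GC content and length correction they were 0.16 for DDIT3 (reversed and called higher), 0.0415 for ASNS (reversed), -0.12 for CHAC1 and -0.15 for STC2 (both called), with 2 members lower and 5 genes of that list higher. Voom without control replicate 1 gave 0.204 for CEBPB, -0.0738 for DDIT3, -0.261 for CHAC1, -0.0632 for ASNS and -0.0823 for STC2, all called, with 4 members lower and 5 genes of that list higher. Among the other lists, genes called without TMM scaling were 7 higher in place of 4 for the kinases and eIF2, 2 in place of 0 for amino acid synthesis, 5 in place of 3 for transport and 1 in place of 0 for tRNA loading, and 1 lower in place of 3 for the stress effectors. The GC content and length correction gave 3 transporters lower and 1 tRNA gene higher, in place of 0 each, and a mean of at least 1 RPKM left out FOS. The cause of these shifts was not tested. Of all calls in the whole set of genes, 48.4% were higher with that correction and 50.0% with the replicate block. The list counts of these runs are not read as results about the lists. The replicate block called CHAC1 lower (-0.17, limma adjusted p = 0.015), 1 member in all, EIF2AK2 higher (0.12, limma adjusted p = 0.0437) and 5 transporters higher in place of 3. Whether the numbers pair the samples cannot be decided from these values. Deviations of same-numbered samples correlated at 0.38, 0.33, 0.17 and -0.16, and the controls' best matches were SB-treated replicates 1, 2, 2 and 2.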
